A study of Mus musculus with 9 samples.

Results

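The 54 genes described here encode the receptors, secreted inhibitors, cytoplasmic transducers and nuclear effectors of the Wnt pathway, and were taken by gene symbol from a fixed list. That list was chosen with earlier results of these data known. All 54 were found among the 24138 loci of the expression table, and comprised 15 receptors and co-receptors, 2 factors for ligand acylation and secretion, 6 genes of the R-spondin axis, 8 secreted inhibitors and Dkk receptors, 11 cytoplasmic transducers and 12 nuclear effectors. RNA-seq was performed on whole mouse kidneys at E15.5, with 3 kidneys and 3 libraries of each of 3 genotypes. *Foxd1GC/+;Ntn1fl/fl* kidneys (homozygous, MUT) carry the *Foxd1* GFP-Cre knock-in, which is active in the stromal progenitors, and 2 floxed *Ntn1* alleles. *Foxd1GC/+;Ntn1fl/+* kidneys (heterozygous, HET) have this Cre too, with 1 floxed and 1 intact *Ntn1* allele, so that both genotypes lack 1 intact *Foxd1* allele. *Ntn1fl/fl* kidneys (wild type, WT) carry 2 floxed alleles and no Cre. The kidneys came from 3 crosses, and which library came from which cross is not stated in the sources used here.

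Wnt ligands bind Frizzled receptors together with the co-receptors Lrp5 and Lrp6, and Dishevelled proteins carry the signal to a destruction complex of Axin, Apc and Gsk3. When the complex is inhibited, β-catenin (*Ctnnb1*) accumulates and works in the nucleus with Tcf and Lef factors, which otherwise bind Tle co-repressors. Secreted Sfrp proteins bind the ligand and Dkk1 blocks the co-receptor, whereas R-spondins acting through Lgr receptors protect Frizzleds from the E3 ligases Rnf43 and Znrf3. In the embryonic kidney, Wnt9b from the ureteric epithelium and Wnt4 in the nephron progenitors are required for nephron formation, and stromal cells and the ureteric bud also respond to β-catenin.

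Levels are given in FPKM (fragments per kilobase of transcript, scaled to the library), so that genes can be compared per length of transcript. Read numbers are not given, and precision rests on the spread of 3 libraries. A gene was tested where its average reached 5 FPKM in at least 1 of the genotypes compared, with limma on log2(FPKM + 1), a scale on which differences of genes with low levels are compressed and so understated. Of the 54 members, 46 passed this minimum in all 3 comparisons. The other 8 were *Fzd5*, *Fzd9*, *Porcn*, *Lgr5*, *Rnf43*, *Wif1*, *Apc2* and *Nkd2*, and stayed between 0.442 and 4.30 FPKM in all 9 libraries.

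Several libraries stood apart from the others. *Ntn1*, the targeted gene, was at 17.8 to 28.9 FPKM in WT, 12.02 to 16.5 in HET and 10.8 to 16.5 in MUT, so that its level over the whole locus separated WT from the Cre-carrying genotypes but not HET from MUT. HET-2 had a summed level of 6 liver markers of 619.9 FPKM, against 27.4 to 51.9 in the other 8 libraries, and a summed level of 18.5 FPKM for 6 neural markers, against at most 4.66. Markers of nephron progenitors, stroma, ureteric epithelium and podocytes were present in all libraries. Relative depth, read from the spacing of low values with WT-1 set to 1, ranged from 0.576 in WT-2 and 0.612 in MUT-3 to 1.27 in MUT-1. In the members themselves WT-1 and MUT-1 stood high and WT-3 stood low. The median deviation of the 46 tested members from their own mean over 9 libraries was 0.19 in WT-1 and 0.24 in MUT-1, -0.19 in WT-3, 0.06 in MUT-2 and between -0.08 and -0.04 in the remaining 5. MUT-1 had the highest value of the 9 libraries for 19 of 46 members and WT-3 the lowest for 24. The shares of all genes with these extremes are not given. The tested members had a median transcript length of 2777.5 bases against 1292 for all 10081 genes tested in MUT against HET, and 28 of the 46 fell in the longest quartile. Genes of that quartile also stood high in WT-1 (median deviation 0.09) and MUT-1 (0.11) and low in HET-1 and HET-2 (-0.07 and -0.08). By GC content, the highest quartile of tested genes had a median deviation of -0.16 in WT-3 and the lowest quartile 0.19. The highest quartile was at 0.04 in both WT-1 and MUT-1, and at 0.08 and 0.11 in HET-1 and HET-2. Of the 46 members, 18 fell in the highest GC quartile and 6 in the lowest. The part of transcript length and GC content in the differences below was not tested beyond the corrections given with them.

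**Figure D1:**
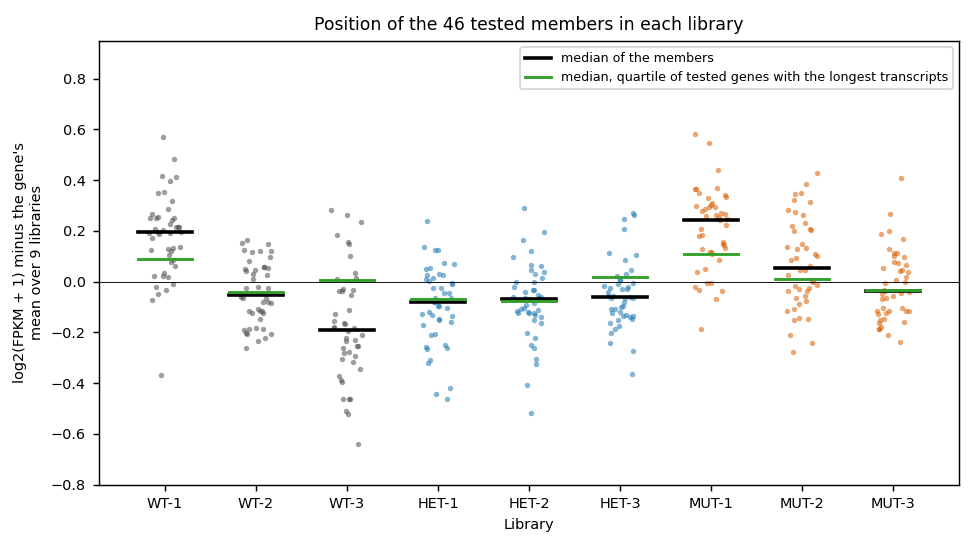
Deviation of each of the 46 tested members from its mean over the 9 libraries, in log2(FPKM + 1), by library. Points are genes, coloured by genotype, black lines are the members' medians and green lines are medians of the quartile of tested genes with the longest transcripts. The members' medians are highest in MUT-1 (0.24) and WT-1 (0.19) and lowest in WT-3 (-0.19).

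*Ctnnb1* was by far the most abundant member, with a mean of 486 FPKM over 9 libraries. The 12 nuclear effectors otherwise ranged down to 8.53 FPKM, around a median of 16.0. Receptors ranged from 0.570 to 53.0 FPKM and cytoplasmic transducers from 0.643 to 46.4 FPKM. Secreted inhibitors ranged from 0.882 to 78.2 FPKM, and *Sfrp2* was the highest of them. Summed Frizzled levels were 206±24.8 FPKM in WT, 199±6.58 in HET and 224±15.6 in MUT (mean±s.d., n=3 each). The sums of single libraries ran from 193 to 206 FPKM in HET and from 207 to 238 in MUT, and WT, at 188 to 234, overlapped both. *Fzd2* and *Fzd1* made up 25.4% and 24.4% of the Frizzled sum, *Fzd7* 19.0% and *Fzd4* 13.9%. Within the other families 1 member often dominated. *Lgr4* made up 93.1% of *Lgr4* and *Lgr5*, *Ryk* 76.9% of the Ror and Ryk sum, *Rspo1* 74.4% of *Rspo1* and *Rspo3*, *Axin1* 70.0% of the Axins and *Gsk3a* 69.1% of the Gsk3 pair. The Tcf and Lef factors were led by *Tcf7l1* (46.7%), which acts mainly as a repressor, and *Tle3* supplied 37.1% of the Tle sum. *Lrp5* and *Lrp6* (44.7% and 55.3%) and the 3 Dishevelled genes (30.8% to 36.5% each) were more evenly balanced. Differences in shares between genotypes were not tested. *Axin1* took 70.0% in WT, 70.2% in HET and 69.8% in MUT. *Bcl9* took 61.7%, 66.4% and 58.9% of its sum with *Bcl9l* in WT, HET and MUT, and *Dvl3* took 34.3%, 29.3% and 34.3% of the Dishevelled sum. In the Dkk family, *Dkk1* took 53.5%, 53.3% and 48.2% of its sum in WT, HET and MUT while *Dkk3* took 24.0%, 26.6% and 30.4%.

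**Figure D2:**
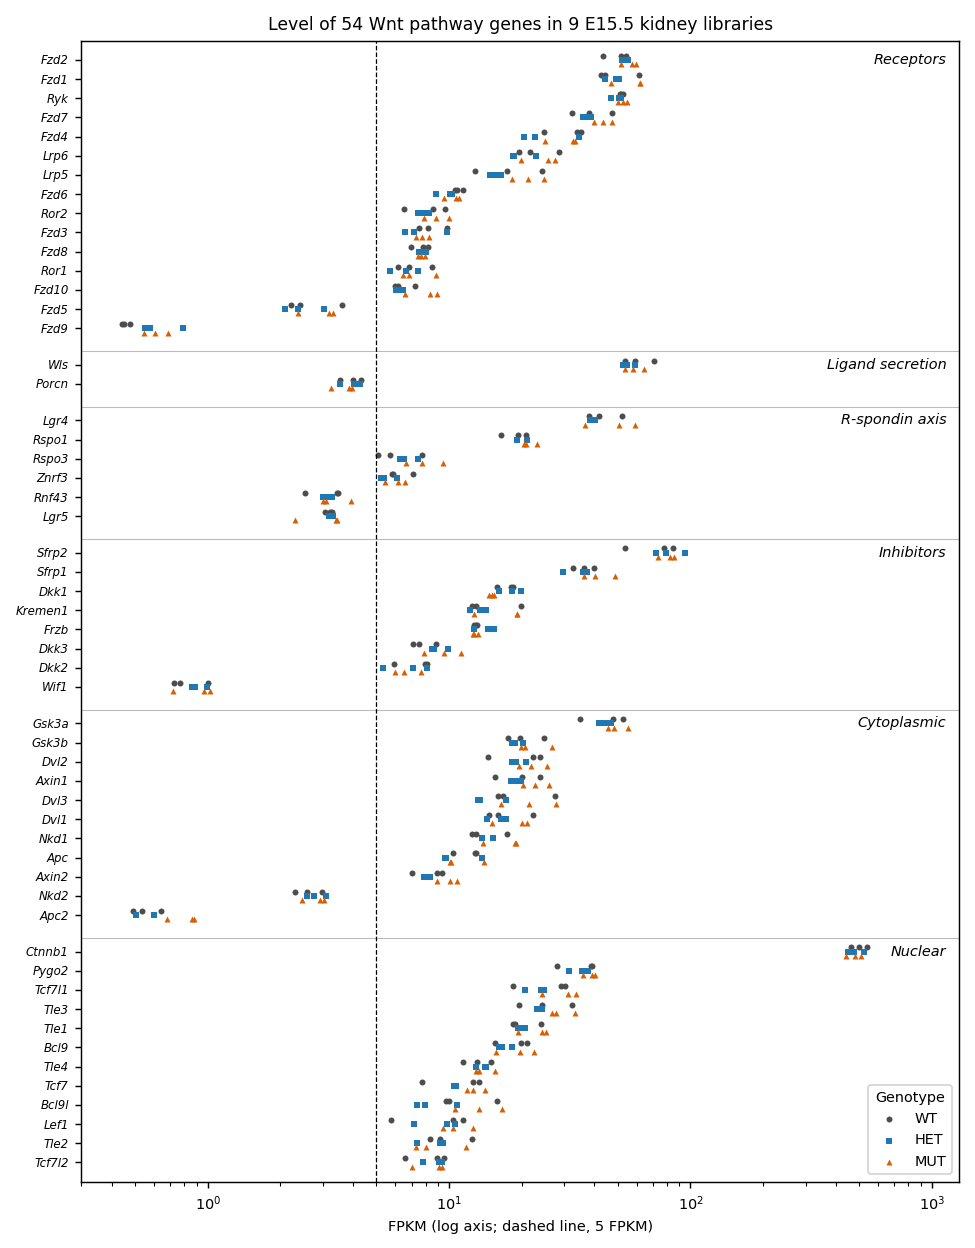
FPKM of the 54 members in each of the 9 libraries on a log axis, grouped by role and ordered by mean level, with WT, HET and MUT in separate colours and symbols. The dashed line marks the minimum of 5 FPKM, below which the 8 untested members lie, and *Ctnnb1* stands alone at a mean of 486 FPKM.

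The comparison of MUT with HET asked what differs when both *Ntn1* alleles rather than 1 are deleted with the same Cre. No member passed the test. With limma and Benjamini-Hochberg adjustment, 0 of 46 members had an adjusted p under 0.05, as did 0% of the 10081 genes tested, and the lowest adjusted p of a member was 0.933 (0.738 without the replicate block). At an unadjusted p under 0.05 there were 6 members (13% of 46), against 4.9% of all genes tested: *Lrp5*, *Kremen1*, *Dvl3*, *Tcf7l1*, *Tle3* and *Bcl9l*. This count was 3 without HET-2, 0, 3 and 15 without the libraries numbered 1, 2 and 3, and 10 each without the replicate block and with GC correction. The 4.9% holds for the reported fit only, and the share of all genes is not given for the alternatives. Without the libraries numbered 3, 148 genes in all had an adjusted p under 0.05 with limma. The differences were small and mostly in the same direction. A log2 fold change above 0 was seen in 39 of 46 members (84.8%), against 45.9% of all genes tested, and the median log2 fold change of the members was 0.17, against -0.02 over all genes. All 3 MUT libraries lay above all 3 HET libraries for 7 members (15.2%), against 5.19% of genes, and below them for 1 member (2.17%), *Dkk1*, against 4.5% of genes. An exact two-sided permutation test of 3 libraries against 3 gives p = 0.1 for each of these 8, the smallest value this design allows. Members share the same 6 libraries and are not independent of each other, and in whole kidney fewer cells of a type and less RNA per cell cannot be told apart.

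The size of the difference depended on which libraries were set side by side. Between libraries of the same number, the members' median difference of MUT from HET was 0.30 for number 1 (41 of 46 higher), 0.15 for number 2 (34 of 46) and 0.05 for number 3 (27 of 46). Without MUT-1 and HET-1 the median log2 fold change was 0.13, and without HET-2 alone it was 0.16 with 39 members still above 0 and 0 called. After correction for GC content and transcript length it was 0.14 with 35 members above 0. By role, the median was 0.15 in the receptors (12 of 13 above 0), 0.16 in the R-spondin axis (4 of 4), 0.21 in the cytoplasmic transducers (9 of 9), 0.17 in the nuclear effectors (10 of 12) and -0.01 in the secreted inhibitors (3 of 7). *Wls*, the single tested gene for ligand secretion, had a log2 fold change of 0.07.

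**Figure D3:**
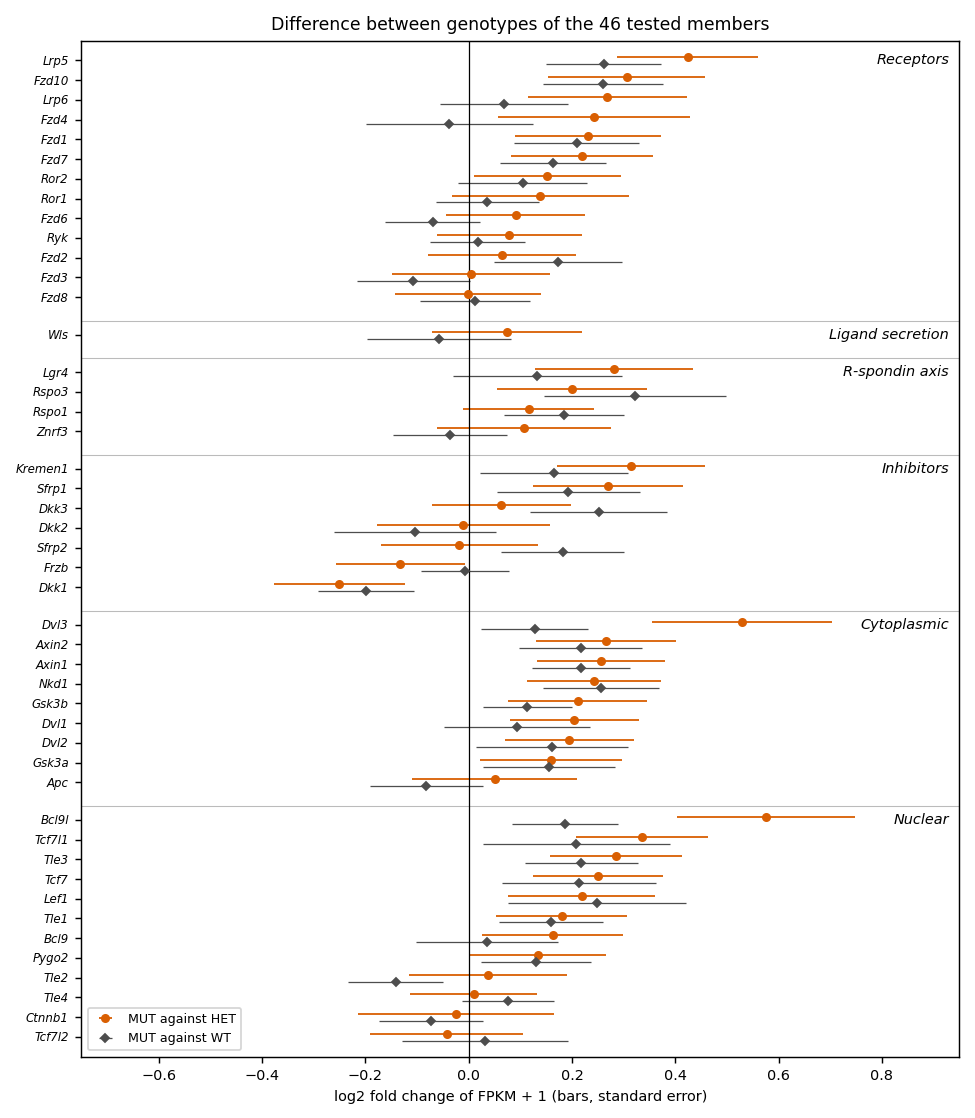
Log2 fold change of FPKM + 1 for the 46 tested members by role, MUT against HET (orange circles) and MUT against WT (grey diamonds), with standard errors from limma as bars. In MUT against HET 39 of 46 members lie above 0 and none passes an adjusted p of 0.05. Both contrasts use the same MUT libraries.

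Among the receptors, *Lrp5* (chr19:3584825-3686564, mm10), which encodes a co-receptor for canonical Wnt ligands, had the largest difference between MUT and HET. Its FPKM was 24.7, 21.2 and 18.2 in MUT-1 to MUT-3, 14.8, 15.48 and 16.5 in the HET libraries in the same order, and 24.2, 17.3 and 12.8 in WT. Every MUT library lay above every HET library, but the WT libraries overlapped both genotypes. The log2 fold change of MUT against HET was 0.42±0.14 (s.e.). *Fzd10* (chr5:128601106-128604093), a Frizzled of low abundance here, was at 8.33, 8.91 and 6.58 FPKM in MUT, 6.01, 6.46 and 6.10 in HET and 7.22, 6.15 and 5.95 in WT. MUT-3 exceeded the highest HET library by little, and the log2 fold change was 0.31±0.15. *Fzd7* (chr1:59482147-59486955), a receptor for canonical ligands in many progenitor cells, was at 47.3, 43.6 and 39.9 FPKM in MUT, 37.1, 36.0 and 38.6 in HET and 47.4, 37.9 and 32.3 in WT. The MUT values again lay above HET, WT-1 was close to the highest MUT library, and the log2 fold change was 0.22±0.14. *Fzd2* (chr11:102604431-102608058), the most abundant Frizzled, was at 57.05, 51.4 and 59.5 FPKM in MUT, 52.9, 55.3 and 52.0 in HET and 51.7, 54.04 and 43.3 in WT. These ranges overlapped, with a log2 fold change of 0.06±0.14 that turned to -0.02 after correction for GC content and length. The remaining tested receptors overlapped between MUT and HET, and their log2 fold changes ran from -0.00215 for *Fzd8* to 0.27 for *Lrp6*. *Ryk*, *Ror1* and *Ror2*, which act in non-canonical signalling, had log2 fold changes of 0.08±0.14, 0.14±0.17 and 0.15±0.14.

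Ligand secretion and the R-spondin axis showed no separation of MUT from HET. *Wls* (chr3:159839695-159935175), the carrier that takes Wnt proteins to the cell surface, was at 57.9, 63.9 and 53.5 FPKM in MUT, 52.4, 54.7 and 59.1 in HET and 59.0, 53.4 and 70.9 in WT. The 3 genotypes overlapped, and the log2 fold change of MUT against HET was 0.07±0.15, or -0.00496 after correction for GC content and length. *Lgr4* (chr2:109917647-110014257), the main R-spondin receptor gene here, was at 50.8, 58.7 and 36.7 FPKM in MUT, 40.3, 39.0 and 38.3 in HET and 51.9, 38.0 and 41.8 in WT. MUT-1 and MUT-2 stood above HET whereas MUT-3 was the lowest of the 9 libraries, and the log2 fold change was 0.28±0.15. *Rspo3* (chr10:29453107-29535867), a secreted R-spondin, was at 7.72, 6.66 and 9.43 FPKM in MUT, 6.51, 6.25 and 7.44 in HET and 5.10, 7.74 and 5.70 in WT. It was higher in MUT in all 3 numbered pairs, yet MUT-2 lay below HET-3, with a log2 fold change of 0.20±0.15. *Rspo1* and the ligase gene *Znrf3* had log2 fold changes of 0.12±0.13 and 0.11±0.17. *Rnf43* and *Lgr5*, both of which respond to β-catenin in other tissues, stayed between 2.30 and 3.91 FPKM in all libraries and were not tested.

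The secreted inhibitors held the single member whose MUT libraries all lay below HET. *Dkk1* (chr19:30545885-30549496), which encodes an inhibitor of the Lrp5 and Lrp6 co-receptors, was at 14.6, 15.02 and 15.4 FPKM in MUT, 19.9, 18.3 and 16.1 in HET and 18.4, 15.8 and 18.1 in WT. All 3 MUT libraries lay below all HET and all WT libraries, although HET-3 exceeded MUT-3 by less than the spread within HET. The log2 fold change was -0.25±0.13 against HET and -0.20±0.09 against WT, with unadjusted p of 0.0694 and 0.0726 and adjusted p of 0.933 and 0.995 from limma. *Kremen1* (chr11:5191553-5261610), whose product works with Dkk1 to remove Lrp6 from the cell surface, was at 19.05, 19.2 and 12.7 FPKM in MUT, 12.2, 14.2 and 13.4 in HET and 19.9, 12.5 and 13.0 in WT. MUT-1, MUT-2 and WT-1 formed the high values and MUT-3 lay within HET, with a log2 fold change of 0.31±0.14. *Sfrp1* (chr8:23411502-23449632), which encodes a decoy that binds Wnt ligands, was at 40.3, 48.7 and 36.1 FPKM in MUT, 29.7, 36.0 and 37.2 in HET and 40.0, 32.5 and 36.2 in WT. The genotypes overlapped and the log2 fold change was 0.27±0.15. *Sfrp2* (chr3:83766321-83774314), the most abundant inhibitor, was at 85.7, 82.2 and 73.6 FPKM in MUT, 78.9, 94.8 and 72.1 in HET and 84.6, 77.9 and 53.6 in WT. The highest value belonged to HET-2 and the lowest to WT-3, and the log2 fold change of -0.02±0.15 turned to 0.09 without HET-2. *Frzb*, *Dkk2* and *Dkk3* had log2 fold changes of -0.13±0.13, -0.01±0.17 and 0.06±0.14.

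All 9 tested cytoplasmic transducers had a log2 fold change above 0, and *Axin1* and *Axin2* separated MUT from HET. *Axin1* (chr17:26138686-26195811), the scaffold of the destruction complex, was at 25.9, 22.7 and 20.3 FPKM in MUT, 19.8, 19.1 and 18.1 in HET and 23.9, 20.1 and 15.6 in WT. *Axin2* (chr11:108920349-108950781), a related scaffold and a widely used transcriptional readout of β-catenin, was at 10.7, 8.93 and 10.1 FPKM in MUT, 7.91, 7.96 and 8.33 in HET and 9.34, 8.93 and 7.03 in WT. Every MUT library lay above every HET library for both genes, as did WT-1 and WT-2, whereas WT-3 was the lowest of the 9. The log2 fold changes of MUT against HET were 0.26±0.12 for *Axin1* and 0.27±0.14 for *Axin2*, and those of MUT against WT, whose libraries overlapped, were both 0.22. *Dvl3* (chr16:20517064-20532187), a Dishevelled gene, was at 27.8, 21.4 and 16.3 FPKM in MUT, 13.1, 13.5 and 17.1 in HET and 27.5, 16.7 and 15.9 in WT. Its log2 fold change of 0.53±0.17 was the largest of this group, although HET-3 exceeded MUT-3. Without the libraries numbered 3 it was 0.83, with an adjusted p of 0.0171 from limma. *Gsk3a* (chr7:25228259-25237851), a kinase that marks β-catenin for degradation, was at 55.3, 45.4 and 48.4 FPKM in MUT, 47.02, 44.1 and 41.8 in HET and 52.6, 47.8 and 34.7 in WT. MUT was higher in all 3 numbered pairs, the groups overlapped, and the log2 fold change was 0.16±0.14. *Dvl1*, *Dvl2*, *Gsk3b* and *Nkd1*, the last an inhibitor of Dishevelled, lay between 0.19 and 0.24, and *Apc* had a log2 fold change of 0.05±0.16. *Apc2* was not tested. It was at 0.861, 0.882 and 0.682 FPKM in MUT and 0.506, 0.597 and 0.600 in HET, so that MUT lay above HET at a very low level. Its locus in the table spans 672333 bases against 22302 in RefSeq, so its FPKM may not be that of *Apc2* alone.

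In the nucleus the levels of *Ctnnb1* itself overlapped among the 3 genotypes. *Ctnnb1* (chr9:120933400-120960507) was at 478, 439 and 508 FPKM in MUT, 477, 449 and 525 in HET and 461, 501 and 538 in WT. Its log2 fold change of -0.02±0.19 changed sign with quantile normalization (0.03) and with GC correction (0.01), and transcript level does not report the amount of stable protein. *Tcf7* (chr11:52252604-52282571), a Tcf factor that β-catenin itself induces in several cell types, was at 14.1, 11.8 and 12.6 FPKM in MUT, 10.7, 10.5 and 10.6 in HET and 13.3, 12.5 and 7.72 in WT. MUT lay above HET in every library, WT-1 and WT-2 lay within the MUT range, and the log2 fold change was 0.25±0.13. *Tle3* (chr9:61372366-61418497), a co-repressor of Tcf factors, was at 33.1, 27.7 and 26.7 FPKM in MUT, 24.3, 23.5 and 23.2 in HET and 32.4, 24.3 and 19.5 in WT. It too separated MUT from HET but not from WT, with a log2 fold change of 0.29±0.13. *Tcf7l1* (chr6:72626371-72789045) was at 33.5, 24.2 and 31.2 FPKM in MUT, 24.1, 20.7 and 24.7 in HET and 30.1, 29.1 and 18.5 in WT. MUT-2 lay within the HET range, and the log2 fold change was 0.34±0.13. *Bcl9l* (chr9:44499136-44510412), a co-activator that links β-catenin to Pygo proteins, had the largest log2 fold change of all tested members at 0.58±0.17. It was at 16.5, 13.4 and 10.6 FPKM in MUT, 7.95, 7.36 and 10.7 in HET and 15.7, 9.98 and 9.76 in WT. HET-1 and HET-2 were the lowest of the 9 libraries, whereas HET-3 and MUT-3 were nearly equal. Without the libraries numbered 3 the log2 fold change was 0.87, with an adjusted p of 0.0117 from limma, and *Bcl9l* and *Dvl3* were the only members to pass the test in any alternative of this comparison. That fit held 4 libraries with 1 residual degree of freedom and called 148 genes in all. The *Bcl9l* locus in the table covers 0.387 of the RefSeq span and that of *Bcl9* 0.250, so these values concern part of each gene. The other Tle genes, *Tcf7l2*, *Lef1*, *Bcl9* and *Pygo2* had log2 fold changes from -0.04 (*Tcf7l2*) to 0.22 (*Lef1*) and overlapped between MUT and HET.

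**Figure D4:**
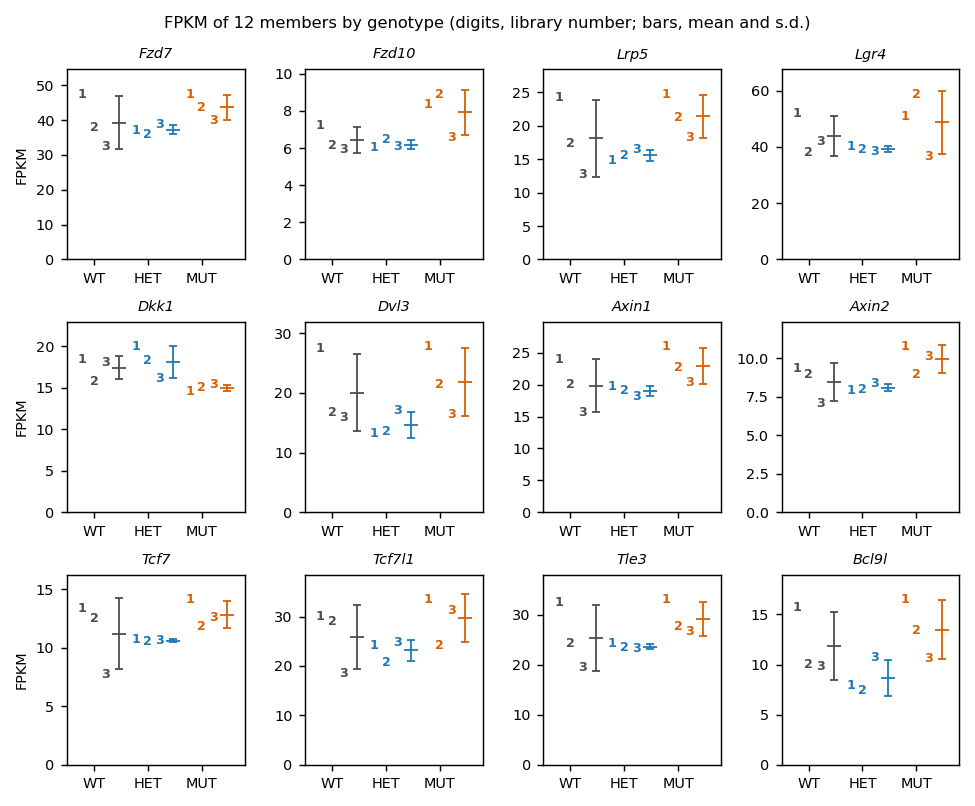
FPKM of 12 members in WT, HET and MUT kidneys, each axis starting at 0. Digits give the library number and bars the mean and s.d. of 3 libraries. HET libraries lie close together for *Tcf7*, *Tle3*, *Axin1* and *Axin2*, MUT libraries lie above them, and WT libraries overlap the MUT libraries, while *Dkk1* is lowest in MUT.

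Comparison with WT placed the MUT and HET values in context. In MUT against WT, 0 of 46 members passed an adjusted p of 0.05 (0% of 10096 genes) with limma, and 0 had an unadjusted p under 0.05 (1.99% of genes). A log2 fold change above 0 was seen in 35 of 46 members (76.1%), against 48.7% of genes, with a median of 0.13. Of the 46 tested members, 0 lay higher in all MUT than in all WT libraries (1.32% of genes), and *Dkk1* alone lay lower (1.34% of genes). Of the 8 untested members, *Fzd9* and *Apc2*, both below 1 FPKM in all libraries, lay higher in all MUT than in all WT libraries. In HET against WT, 0 members passed an adjusted p of 0.05 (0% of 10105 genes) and 0 an unadjusted p of 0.05 (2.31% of genes). The log2 fold change was above 0 in 12 of 46 members (26.1%), against 52.4% of genes, with a median of -0.05. Of the tested members, 0 were higher in all HET than in all WT libraries (2.15% of genes), while the untested *Fzd9* was higher, and *Fzd6* was lower (1.06% of genes), at 8.81, 10.1 and 10.3 FPKM in HET and 11.5, 10.8 and 10.6 in WT. The mean of HET was the lowest of the 3 genotypes in 32 of the 46 members, and the mean of MUT the highest in 32. The shares of all genes with these orders are not given, so the 2 counts are not read as a trait of the members. The 3 contrasts share libraries. WT-1 was the highest of the WT libraries in 37 of 46 members, against 31.9% of all genes tested in MUT against HET. WT-3 was the lowest in 29, for which the share of all genes is not given. The position of WT in the members thus depended on WT-1 and WT-3. Without the libraries numbered 1, the HET against WT median was 0.04 and 32 of 46 members were above 0. Without those numbered 3, the MUT against WT median was 0.04 with 32 members above 0.

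Among genes of the pathway outside the 54, 6 of 19 Wnt ligand genes were tested, and all 6 had a log2 fold change above 0 in MUT against HET (median 0.13), with 0 called. The largest differences were those of *Wnt5a*, a stromal and non-canonical ligand (0.43±0.15), and *Wnt7b*, a ligand of the ureteric epithelium (0.33±0.15), and in each the libraries overlapped. Of 50 other regulators of β-catenin, 39 were tested, 32 were above 0 and 7 below (median 0.10), and 4 had MUT libraries all above HET. *Hipk2*, which encodes a nuclear kinase, had a log2 fold change of 1.34±0.43 and was at 20.2, 18.3 and 6.02 FPKM in MUT, 2.94, 2.81 and 10.7 in HET and 20.7, 6.91 and 8.81 in WT. It was low in HET-1 and HET-2, as were *Dvl3* and *Bcl9l*. *Tbl1x*, a partner of β-catenin in transcription, had a log2 fold change of 0.42±0.20. Planar cell polarity genes were above 0 in 10 of 11 tested (median 0.19), with 4 not overlapping, and *Celsr1* (0.54±0.15) and *Celsr2* (0.46±0.16) had the largest differences. A list of 16 other genes known to respond to β-catenin was mixed, with 5 of 13 tested above 0 and 8 below (median -0.02). That list leaves out responsive genes counted elsewhere, such as the members *Axin2* and *Tcf7* described above. It therefore does not stand for all genes that respond to β-catenin. *Jun* (0.58±0.19) and *Sox4* (0.54±0.17) lay above all HET libraries in MUT. In all 4 lists 0 genes had an adjusted p under 0.05 with limma. An unadjusted p under 0.05 was seen in 2 of 6, 3 of 39, 3 of 11 and 2 of 13 tested genes, against 4.9% of all genes. Of all genes tested, 45.9% had a log2 fold change above 0 and 5.19% had MUT libraries all above HET.

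Marker genes of other cell types moved in the same comparison, and their part in the members' values was not tested. For reference, 45.9% of all genes tested had a log2 fold change above 0. All 4 tested smooth muscle markers had lower levels in MUT than in HET (median log2 fold change -0.48). The means of *Myh11* (-0.60) and *Actg2* (-1.07) reached 5 FPKM only in HET, so the minimum fixed their direction. The other tested markers were *Acta2* at -0.37 and *Tagln* at -0.10. Summed levels of the 5 markers were 118 to 172 FPKM in HET, 95.3 to 130 in MUT and 98.6 to 126 in WT. Of these 5, 0 were at or under 0.5 FPKM throughout. All 5 tested podocyte markers had higher levels (median 0.24), with summed levels of 123 to 163 FPKM in HET, 131 to 195 in MUT and 146 to 221 in WT. All 4 tested markers each of macrophages (median -0.23), erythroid cells (-0.24) and liver (-1.84) had lower levels in MUT than in HET. Their summed levels in HET, MUT and WT were 44.8 to 50.8, 33.5 to 46.4 and 31.8 to 41.5 FPKM for macrophages, and 1961 to 3442, 1856 to 2252 and 1976 to 2145 FPKM for erythroid cells. HET-2 held the highest sum of the 9 libraries for each of these 3 lists and for smooth muscle. In the liver list, *Alb*, *Apoa1* and *Ttr* were tested only because of HET-2 (243.8, 88.4 and 52.0 FPKM), which fixed their direction. *Cd68* of the macrophage list was tested only through its mean in HET, which likewise fixed its direction. *Adgre1* and *Ptprc* of that list were not tested and were not lower in MUT. *Adgre1* was at 2.13, 3.07 and 2.46 FPKM in MUT and 2.20, 2.33 and 2.53 in HET. *Ptprc* was at 2.20, 2.47 and 2.15 FPKM in MUT and 1.87, 1.91 and 2.27 in HET, so both overlapped. *Afp* was at 216.5 FPKM in HET-2, 29.3 and 23.9 in HET-1 and HET-3, and 22.8, 44.3 and 22.6 in MUT. Summed levels of 7 nephron progenitor markers were 323 to 366 FPKM in HET and 298 to 400 in MUT, and those of 8 stromal markers 500 to 515 and 489 to 533. None of these markers was called at an adjusted p of 0.05 with limma.

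Promoter sequences of 38 of the 54 members were matched in RefSeq (GRCm38.p6), as 51 windows from 250 bases before to 50 after a start site. The core Tcf and Lef motif, searched as ATCAAAG or TTCAAAG on both strands, was present in 2 of these windows (3.92%), those of *Gsk3a* and *Dkk1*, against 8.65% of all 32851 windows. The median GC content of the members' windows was 65% and that of all windows 52.7%, so the shares of this AT-rich motif do not compare windows of like composition. The windows of *Axin2*, used as a readout of β-catenin, and *Dkk1*, which lay lower in MUT, are given 5′ to 3′ with a motif match in capitals. *Axin2* is on the plus strand at chr11:108920099-108920398 and had no match in this window. *Dkk1* is on the minus strand at chr19:30549447-30549746 and had a reverse-strand match (CTTTGAA) at position -117 from its start site.
Axin2: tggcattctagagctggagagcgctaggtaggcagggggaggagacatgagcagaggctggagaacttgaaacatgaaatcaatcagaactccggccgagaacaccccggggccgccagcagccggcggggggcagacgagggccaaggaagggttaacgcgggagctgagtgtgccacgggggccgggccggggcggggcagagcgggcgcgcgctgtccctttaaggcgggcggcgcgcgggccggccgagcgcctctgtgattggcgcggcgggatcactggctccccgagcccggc
Dkk1: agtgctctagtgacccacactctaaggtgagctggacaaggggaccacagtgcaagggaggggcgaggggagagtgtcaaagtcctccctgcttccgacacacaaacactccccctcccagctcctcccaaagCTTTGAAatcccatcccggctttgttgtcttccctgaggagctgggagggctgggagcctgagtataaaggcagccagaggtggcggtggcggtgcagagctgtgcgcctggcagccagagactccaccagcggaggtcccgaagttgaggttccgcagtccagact
A match is a description of the letters in a window and does not locate a bound site.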

How the data were processed

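Whole E15.5 kidneys of 3 genotypes were profiled by stranded mRNA-seq, with 3 libraries each. Per the labels, the submitters' processing notes name STAR, Cufflinks and Cuffdiff and the build mm10, with no versions. STAR served for alignment and Cufflinks for transcript assembly, and the authors deposited Cuffdiff FPKM for 24138 loci, of which 355 carry several names. The 3 columns of the authors' means were not used. Reads per library are not given, so no counting error is stated, and relative depth was read from the spacing of low values.

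Genes whose average deposited level reached 5 FPKM in either genotype entered limma 3.58.1 (R 4.3.3) as log2(FPKM + 1) values (lmFit, eBayes with trend, two-sided, Benjamini-Hochberg over all genes tested, threshold 0.05). Each fit held the 6 libraries of 2 genotypes, with the replicate number as a block. That choice is an inference from P values the study prints, since its text states neither a paired test nor whether the numbers stand for crosses. The limma p-values rest on the spread between these libraries that remains after the block, moderated by eBayes with a trend over all genes tested. Transcript length and GC content came from GENCODE M21 for 95.87% of loci. The fit of MUT against HET was tested on simulated data, with noise drawn independently for each gene and library. That simulation held no shifts shared by the genes of a library, unlike these data.

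The 54 members and the other gene lists were chosen with earlier results of these data known. Values in every library are given for the most abundant member of each role, the 2 with the largest log2 fold change of MUT against HET, all tested members whose MUT and HET libraries do not overlap, and 5 genes the study names. From other pathway lists the 2 largest differences were named. *Fzd6* and the genes with an unadjusted p under 0.05 were named after their values were seen. *Tle5*, a gene of the other regulators, is listed under its older symbol *Aes*. Alternatives were no block, pseudocounts of 0.1 and 3, FPKM minimums of 0, 1 and 10, median-ratio scaling, quantile normalization, all 9 libraries in 1 fit, no trend, correction for GC content (a spline, 5 degrees of freedom), and each replicate number left out. GC with length correction, and leaving out HET-2, were added after seeing the data. Calculations used Python 3.11.15, pandas 2.3.3, numpy 2.4.6 and scipy 1.17.1.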

Additional observations from a re-analysis of the deposited data

How the results depend on the processing

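The number of members called was 0 in all 3 comparisons under every alternative that kept all 3 replicate numbers. With 1 number left out it ranged from 0 to 2 in MUT against HET, 0 to 1 in MUT against WT and 0 to 2 in HET against WT. The 2 in MUT against HET, *Dvl3* (0.83) and *Bcl9l* (0.87), passed without replicate 3, as did these genes in HET against WT (-0.65 each), and *Rspo3* passed in MUT against WT without replicate 2 (0.58). The members' median log2 fold change in MUT against HET stayed between 0.13 and 0.21 over all alternatives. In MUT against WT it ranged from 0.040 to 0.192 with 1 number left out, and in HET against WT from -0.14 to 0.04. Members not overlapping ranged, with 1 number left out, from 14 to 29 in MUT against HET (10 without HET-2 alone), 8 to 15 in MUT against WT and 4 to 22 in HET against WT, where fewer libraries make separation easier. The share of all genes not overlapping is not given for these or the other alternatives. None of these counts is therefore read as a trait of the members. In MUT against WT this count was 3 with no FPKM minimum, 2 with median-ratio scaling, 2 with GC correction and 3 with GC and length correction, against 1. In HET against WT it was 2 with no minimum, 2 with quantile normalization, 0 with GC correction and 2 with GC and length correction, against 1. At an unadjusted p under 0.05, with 0 members in the reported fit of MUT against WT, there were 2 with no FPKM minimum, quantile normalization or GC correction and 15 without replicate 2, and in HET against WT, also 0 as reported, 7 without replicate 3. The share of all genes at this threshold is not given for these fits. The cause of these differences was not tested, and fits with 1 number left out have 1 residual degree of freedom and called 148 (MUT against HET without 3), 125 (HET against WT without 3) and 168 (MUT against WT without 2) genes in all.

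Without the replicate block, 0 members were called, the MUT against HET median was 0.17 and 8 members did not overlap. Deviations of same-numbered MUT and HET libraries correlated at -0.31, 0.06 and -0.13, those of MUT and WT at 0.55, -0.26 and -0.03, and those of HET and WT at -0.19, -0.06 and 0.18. The averages between libraries of unlike number were 0.06, -0.04 and 0.01 in the same order of comparisons. Likeness of same-numbered libraries was thus not regular, and these values do not tell which libraries came from the same cross.

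Of the 20 members given in every library, 4 changed sign. *Fzd2* was at -0.023 and *Wls* at -0.00496 with GC and length correction. *Sfrp2* was at 0.037 with quantile normalization, 0.017 with GC correction, 0.049 with GC and length correction, between -0.086 and 0.074 with 1 replicate number left out and at 0.090 without HET replicate 2. *Ctnnb1* was at 0.030, 0.0086 and 0.048 with the first 3 of these settings. Besides these and the *Dvl3* and *Bcl9l* values without replicate 3, the other 305 values kept their direction and side of the threshold. Depth in reads is unknown, and with 3 libraries per genotype the standard errors in MUT against HET were 0.12 to 0.19.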
